A study of Mus musculus with 10 samples.

Results

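Atrial-enriched genes are known for a higher level in the atria than in the ventricles. RNA of a whole heart mixes both, so the chamber that a transcript came from cannot be told here. 7 of them were followed here: Sln, Dkk3, Stard10, Bmp10, Myl4, Myl7 and Pam, out of 15454 genes tested and 56748 gene identifiers in the count tables. They were picked as a list by name, with earlier results of the same hearts in view. Their differences between training and sedentary hearts and their covariation across single hearts belonged to what singled them out, and both are therefore given as a description without a test. All 7 were found by Ensembl identifier and counted in every library.

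Whole hearts, with both atria, the atrial appendages and the ventricles, came from male wild-type (WT) C57BL/6 mice that entered the study at 8 weeks of age. The 5 Exercise mice (training hearts) ran on a treadmill at 15 m/min for 120 min per day, 5 days per week, for 8 weeks, after a rest and an acclimatization week. The 5 Control mice (sedentary hearts) did not train and were of the same age. Polyadenylated RNA of each heart was sequenced as 1 library, which gave between 29461697 and 39431030 counts on genes. Per the study's methods, animals of both groups were also imaged by PET/CT under isoflurane after injection of a labelled glucose tracer. Sedentary heart 1 was the highest sedentary heart for 6 of the 7 genes, all but Bmp10, and results that turn on it are also given without it. The libraries hold atria and ventricles together, and in bulk RNA fewer cells of a type and less RNA per cell cannot be told apart.

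Sarcolipin (Sln) is a small membrane protein of the sarcoplasmic reticulum that inhibits the calcium pump SERCA, a task that phospholamban (Pln) carries out in the ventricle. Myl4 and Myl7 encode the essential and the regulatory light chain of atrial myosin, where ventricular myosin carries Myl3 and Myl2. Bmp10 is a secreted ligand of the TGF-β superfamily that signals through the receptor ALK1 (Acvrl1) and SMAD proteins. Pam encodes the peptide-amidating enzyme that is also a main membrane protein of atrial secretory granules, Dkk3 is a secreted glycoprotein of the Dickkopf family, and Stard10 is a lipid transfer protein with a START domain.

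Levels below are CPM, counts of a gene for each 1000000 counts of its library, with library sizes corrected by TMM factors, which even out differences in RNA composition. The mean level of all 7 genes was higher in training hearts. Sln, the sarcolipin gene (chromosome 9, 53742537 to 53761846, plus strand, GRCm39) was at 241.6, 186.5, 294.4, 233.3 and 202.5 CPM in training hearts 1 to 5 and at 195.8, 101.3, 134.3, 155.3 and 102.0 CPM in sedentary hearts 1 to 5. The lowest training heart lay above 4 of the 5 sedentary hearts, and only sedentary heart 1 reached into the training range. Training over sedentary, the log2 fold change was 0.75 ± 0.17 (SE), from a mean of 137.8 ± 39.7 CPM (SD, n = 5) to 231.7 ± 41.6 CPM (SD, n = 5).

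The light chains were the most abundant members when compared per length. In TPM, the share of transcripts after correction for gene length, Myl7 averaged 1440 ± 240.3 (SD, n = 5) in training and 961 ± 381 (SD, n = 5) in sedentary hearts, and Myl4 averaged 1351 ± 226 and 947 ± 369. The spread of each light chain between hearts was larger than the difference of the 2 means. Within single hearts, Myl4 was above Myl7 in training heart 4 (1447 against 1429 TPM) and sedentary heart 2 (622.9 against 602.1 TPM). In every other heart Myl7 was the higher. Pam followed with 681 ± 97.7 TPM in training hearts, then Sln with 204 ± 38.8, with Stard10 (132 ± 20.2), Bmp10 (126 ± 39.9) and Dkk3 (84.9 ± 14.6) below it. Stard10 and Bmp10 were not separated by their spread.

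In CPM, Myl7 (chromosome 11, 5845449 to 5848792, minus strand, GRCm39) stood at 760, 589, 867, 704 and 596 in training hearts 1 to 5 and at 764, 319, 507, 529 and 358 in sedentary hearts 1 to 5. Myl4 (chromosome 11, 104440903 to 104486603, plus strand, GRCm39) stood at 958, 835, 1200, 1033 and 767 in training and at 1124, 495, 730, 810 and 554 in sedentary hearts. For both light chains sedentary heart 1 was higher than 4 of the 5 training hearts, while the other sedentary hearts were below every training heart for Myl7 and, apart from heart 4, for Myl4. The log2 fold change was 0.50 ± 0.19 (SE) for Myl7 and 0.37 ± 0.19 (SE) for Myl4. With each heart left out in turn, that of Myl4 ranged from 0.25 (without sedentary heart 2) to 0.57 (without sedentary heart 1).

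Against their ventricular counterparts, Myl7 made up between 10.3% and 16.5% of the TPM of Myl7 and Myl2 in training hearts and between 5.35% and 15.9% in sedentary hearts. Myl4 made up between 20.5% and 29.9% of the TPM of Myl4 and Myl3 in training hearts and between 11.3% and 26.9% in sedentary hearts. Both shares were lowest in sedentary hearts 2 and 5 and highest in training heart 3, and the groups overlapped because of sedentary heart 1.

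The 3 secreted or secretory members behaved unequally in size. Bmp10 (chromosome 6, 87405969 to 87415616, plus strand, GRCm39) was at 467, 331, 745, 494 and 542 CPM in training hearts 1 to 5 and at 475, 70.3, 317, 489 and 94.0 CPM in sedentary hearts 1 to 5. Its sedentary hearts spanned a 6.96-fold range, the widest of the 7 genes, and hearts 2 and 5 were far below the other 3. The log2 fold change was 0.83 ± 0.44 (SE).

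Dkk3 (chromosome 7, 111712904 to 111758760, minus strand, GRCm39) was at 256, 203, 311, 289 and 258 CPM in training hearts and at 217, 111, 156, 181 and 128 CPM in sedentary hearts, with a log2 fold change of 0.73 ± 0.16 (SE). As for Sln, 4 of the 5 training hearts exceeded every sedentary heart. Pam (chromosome 1, 97722839 to 98023399, minus strand, GRCm39) was at 2238, 2035, 2774, 2319 and 2123 CPM in training and at 2570, 1506, 2007, 1855 and 1505 CPM in sedentary hearts. Its log2 fold change, 0.28 ± 0.13 (SE), was the lowest of the 7, and its coefficient of variation was 12.5% in training hearts, the lowest of the 7, and 23.3% in sedentary hearts, where that of Stard10 was lower at 21.5%.

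Stard10 (chromosome 7, 100963989 to 100995833, plus strand, GRCm39) was at 143, 119, 175, 140 and 132 CPM in training hearts 1 to 5 and at 132, 76.8, 103, 110 and 85.1 CPM in sedentary hearts 1 to 5. Again heart 1 was the only sedentary heart above the lowest training heart. The log2 fold change was 0.48 ± 0.13 (SE).

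**Figure D1:**
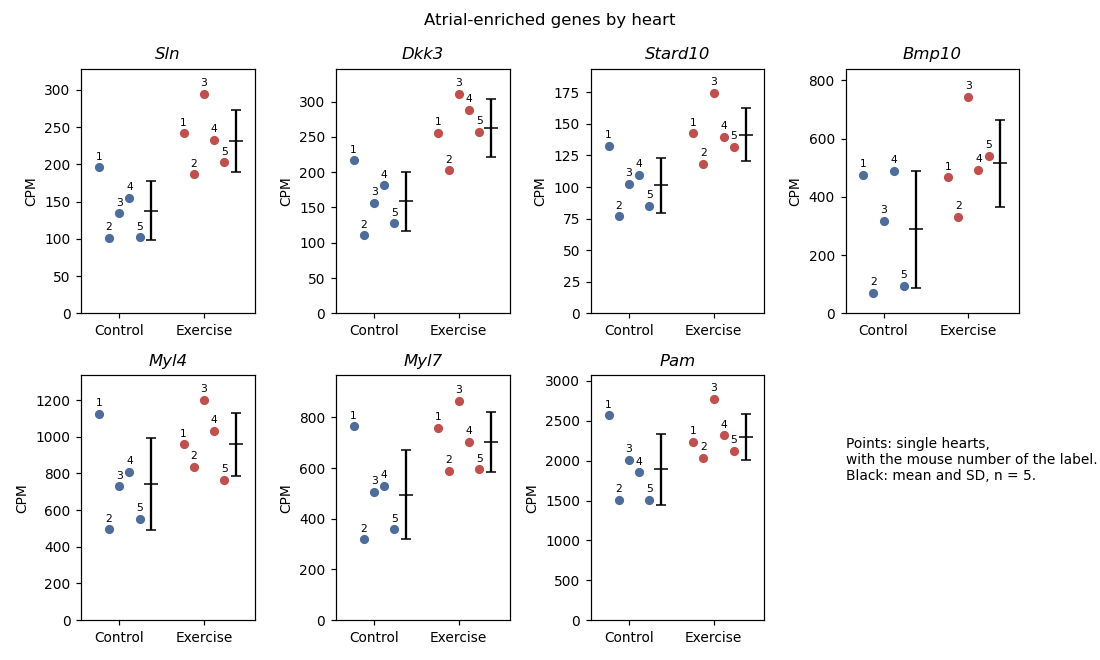
CPM (y axis from 0) of the 7 genes in each of 5 Control (blue) and 5 Exercise (red) hearts, labelled with the mouse number, with the mean and SD in black. Sedentary heart 1 lies within the training range for all 7 genes, and training heart 3 is the highest training heart in each panel.

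In all 7 genes the 5 training hearts were above the sedentary mean, and in 0 of the 7 did the groups separate fully, against 5.06% of all tested genes (either direction). Without sedentary heart 1, every training heart exceeded every sedentary heart for Sln, Dkk3, Stard10, Myl7 and Pam. These are 5 of the 7 genes, against 4.1% of all tested genes. That heart was singled out by the members' own levels, and leaving it out favours such a separation. With edgeR's quasi-likelihood test fitted over all genes, Sln, Dkk3 and Stard10 had a Benjamini-Hochberg adjusted p (FDR) below 0.1, in a table where 7.01% of the genes passed, 2.75% as higher and 4.26% as lower in training hearts. The members were taken from this comparison, so nothing is read from these counts, with or without sedentary heart 1. Their median log2 fold change was 0.50, and that of all tested genes was near 0.

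The hearts of each group were ordered alike by nearly every member. Training heart 3 was the highest of its group for 7 of 7 genes, and training heart 2 was the lowest for 6 of them, all but Myl4. Among sedentary hearts, heart 1 was the highest for 6 genes, all but Bmp10, and heart 2 the lowest for 6, all but Pam. Sln, Dkk3, Stard10, Myl4 and Myl7 shared the whole sedentary order, from heart 1 down through hearts 4, 3, 5 and 2.

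Averaged over the 7 genes, sedentary heart 1 was at 0.63 from its group mean on the log2 CPM scale, and sedentary hearts 2 and 5 were at −0.61 and −0.45. Training hearts lay between −0.30 (heart 2) and 0.35 (heart 3). The size of these excursions differed between genes: after the group means were removed, the SD over the 10 hearts was 0.93 for Bmp10, 0.37 for Myl7, 0.35 for Myl4, 0.32 for Sln, 0.30 for Dkk3, 0.25 for Stard10 and 0.24 for Pam. The smallest count of any member in a library was 2407 for Bmp10, at which the counting error is 2.04%, well under this spread.

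**Figure D2:**
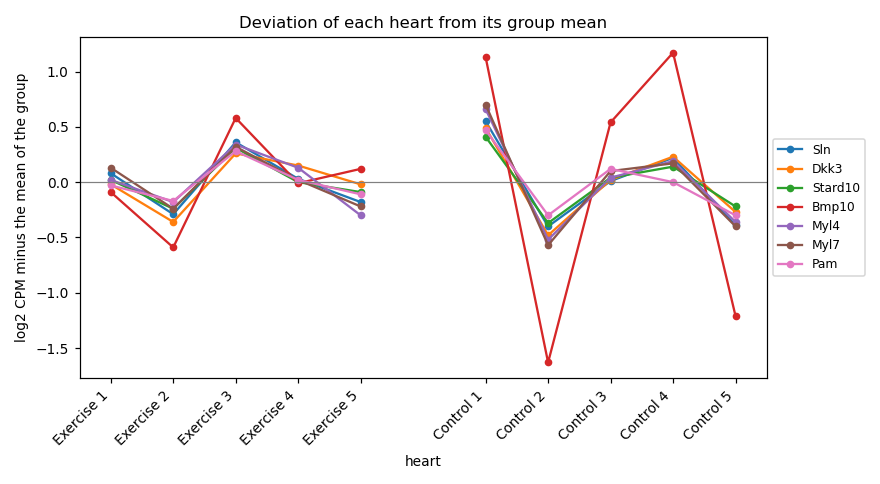
Log2 CPM of each gene minus the mean of its group (y axis) in each of the 10 hearts (x axis), 1 line per gene. The lines run together, with peaks at training heart 3 and sedentary heart 1 and troughs at sedentary hearts 2 and 5; Bmp10 swings widest and is as high in sedentary heart 4 as in heart 1.

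Over the 21 pairs of members, Pearson's r of these deviations across the 10 hearts was between 0.83 and 0.98, with a median of 0.95, and Spearman's rho was between 0.82 and 0.99. The closest pair was Sln with Stard10, and the pair of light chains, Myl4 with Myl7, also reached 0.98. The loosest was Bmp10 with Pam. When the 2 hearts farthest from the median of the first gene of a pair were left out, r ranged from 0.71 to 0.98 with a median of 0.90, so the covariation held without those 2 hearts. These correlations share the libraries and their scaling and carry no p-value.

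Because the 7 genes varied together, the promoter windows of the 3 with a motif match are shown, as RefSeq places them (250 bases before to 50 bases after the transcription start). The table of windows, built on GRCm38.p6, held 5 of the 7 genes, and Sln and Dkk3 were not matched. The Myl7, Bmp10 and Stard10 windows are printed 5′ to 3′ on the strand of the gene, and each was located by exact match in GRCm39, whose coordinates are given. Capitals mark matches to any of the searched motifs.
Myl7, chr11:5848733-5849032, minus strand: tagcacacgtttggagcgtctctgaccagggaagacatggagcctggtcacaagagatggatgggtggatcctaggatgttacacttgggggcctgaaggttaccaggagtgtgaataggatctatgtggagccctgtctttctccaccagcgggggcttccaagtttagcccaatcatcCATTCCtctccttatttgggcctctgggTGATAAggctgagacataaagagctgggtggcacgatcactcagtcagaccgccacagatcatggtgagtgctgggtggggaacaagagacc
Bmp10, chr6:87405726-87406025, plus strand: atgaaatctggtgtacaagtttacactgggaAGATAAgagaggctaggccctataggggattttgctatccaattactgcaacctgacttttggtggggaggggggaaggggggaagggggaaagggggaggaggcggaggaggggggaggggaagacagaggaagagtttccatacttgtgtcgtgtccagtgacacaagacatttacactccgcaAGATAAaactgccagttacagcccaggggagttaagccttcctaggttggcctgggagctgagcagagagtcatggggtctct
Stard10, chr7:100966043-100966342, plus strand: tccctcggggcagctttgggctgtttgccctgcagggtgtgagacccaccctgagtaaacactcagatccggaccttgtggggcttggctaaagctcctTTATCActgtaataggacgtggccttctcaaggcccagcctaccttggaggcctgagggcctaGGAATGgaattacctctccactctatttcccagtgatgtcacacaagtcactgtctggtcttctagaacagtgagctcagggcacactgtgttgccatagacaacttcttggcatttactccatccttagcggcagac

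The start in these windows lay within 7 bases of a GENCODE transcript start. For Stard10 only 3 of 19 GENCODE transcripts started within 50 bases of it, against 20 of 20 for Myl7 and 1 of 1 for Bmp10. For Myl4 the nearest GENCODE start was 561 bases away, and its window had no match. The search covered both strands with 8 motifs of factors known from cardiac muscle and its core promoters. A GATA motif was in 3 of the 5 matched windows, those printed, and in neither the Myl4 nor the Pam window: AGATAA at positions −219 and −33 of Bmp10 counted from the start, TGATAA at −42 of Myl7, and TGATAA on the reverse strand at −151 of Stard10. These letters were in 11.2% (AGATAA) and 9.05% (TGATAA) of all 32851 windows. The MCAT motif GGAATG was in the Myl7 and Stard10 windows and in 14.7% of all windows. None of the 5 matched windows, those of Myl4 and Pam included, held the T-box motif AGGTGT (13.7% of all windows), the NKX motif TNAAGTG (11.5%), the MEF2 motif (3.69%), the nuclear receptor motif AGGTCA (16.3%) or the TATA motif TATAAA (13.6%). No matches overlapped, and such a match is a string of letters and not a mapped binding site.

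To see which other genes followed the same hearts, each tested gene was given the median of its 7 correlations with the members. Over 15447 other genes this median r was centred near 0, with quartiles at −0.27 and 0.29, and 1.49% of them reached 0.8. The 10 most alike (mean level of 1 CPM or more) were Tmem163, Tbc1d1, Mybphl, Gpx3, Smim1, Gnao1, Cracd, Dock3, Ptgfr and Adcy1, with medians from 0.97 down to 0.94. Tbc1d1 encodes a Rab GTPase-activating protein of glucose transport, Mybphl an atrial myosin-binding protein, Gpx3 a secreted glutathione peroxidase, Gnao1 a G protein subunit, Ptgfr the prostaglandin F receptor and Adcy1 an adenylate cyclase.

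Mybphl shows the shared course. It was at 123, 108, 157, 136 and 108 CPM in training hearts 1 to 5 and at 137, 58.5, 94.5, 105 and 76.4 CPM in sedentary hearts 1 to 5. As in the members, training heart 3 and sedentary heart 1 led their groups and sedentary heart 2 was the lowest. Rap1gap2, Abcf1, Csnk1g2, Scx and Gm33609 ran most strongly against the members, with median r from −0.96 to −0.90. Rap1gap2 was lowest in sedentary heart 1 (96.9 CPM) and highest in sedentary heart 5 (116 CPM), a narrow range compared with that of the members.

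A list of 17 other genes known from atrial muscle was read beside the members. It was written with earlier results in view, and covariation belonged to what singled out the members, so it cannot check the label. The median r of these 17 genes with the members was 0.80 at the middle of the list. The mesothelial and epicardial list described below was at 0.82, so this value does not set atrial genes apart. Of the 17 genes, 8 reached 0.8: Nppa, Mybphl, Sbk2, Sbk3, Kcnj5, Tbx5, Myl1 and Fgf12. Nppa, the atrial natriuretic peptide, was at 3547, 3265, 4200, 3881 and 2688 CPM in training hearts 1 to 5 and at 4060, 1693, 2774, 2671 and 1573 CPM in sedentary hearts 1 to 5. Its median r was 0.92, and its log2 fold change of 0.46 ± 0.21 (SE) did not pass (edgeR, adjusted p = 0.248), while without sedentary heart 1 it was 0.69 and passed (adjusted p = 0.0367). The atrial transcription factors Tbx5 and Nr2f2 had median r of 0.94 and 0.66. Their log2 fold changes were 0.23 and 0.20, neither of which passed (edgeR, adjusted p = 0.271 and 0.181). Both passed without sedentary heart 1, at 0.32 and 0.26 (edgeR, adjusted p = 0.0916 and 0.0597). Nppa, Tbx5 and Nr2f2 did not pass when any other single heart was left out. Without sedentary heart 2, for example, the log2 fold changes were 0.34, 0.13 and 0.15 (edgeR, adjusted p = 0.417, 0.436 and 0.326). Myl1, a light chain of fast muscle, covaried with the members (0.81) at a log2 fold change of −0.12.

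Ventricular genes ran mostly the other way across hearts. Of 11 listed, 10 were tested, and the median of their r with the members was −0.54, with −0.68 for Myl3, −0.60 for Myl2, −0.50 for Pln and −0.23 for the transcription factor Irx4. Myl2 was lowest in sedentary heart 1 at 4130 CPM and highest in sedentary heart 2 at 5594 CPM, the mirror image of Myl7 in these hearts. Why the ventricular genes ran the other way was not tested. The summed level of the ventricular list, here and below in CPM of the uncorrected library total, was between 12800 and 15200 in training and between 12700 and 14800 in sedentary hearts.

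**Figure D3:**
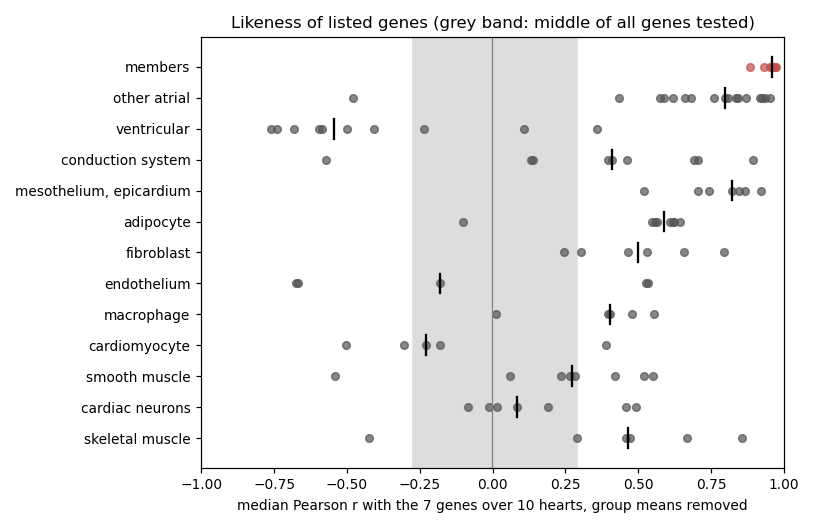
Median Pearson r of each listed gene with the 7 members over 10 hearts after removal of group means (x axis), by gene list (y axis), with the median of each list as a black bar and the middle of all tested genes, between the quartiles, as a grey band. Other atrial genes and mesothelial genes lie mostly above the band, ventricular genes mostly below it.

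Lists for other tissues and cells that a whole heart can hold were read beside these values. Mesothelial and epicardial genes followed the members, with a median r of 0.82 over 7 genes and 0.92 for Upk3b, and 0 of the 7 passed in edgeR at a median log2 fold change of 0.12 (1 at an unadjusted p below 0.05, 0 by DESeq2). Adipocyte genes had a median r of 0.59 and a median log2 fold change of 0.74, and 0 of 8 passed in edgeR (0 at an unadjusted p below 0.05, 0 by DESeq2). Their summed level was between 56.1 and 353 CPM in training and between 49.3 and 235 in sedentary hearts, with sedentary heart 1 the highest of its group. The part of these tissues in the result was not tested.

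Genes of the conduction system had a median r of 0.41, with a summed level of 178 to 232 CPM in training and 166 to 191 in sedentary hearts. In edgeR 0 of 9 passed (2 at an unadjusted p below 0.05, 0 by DESeq2). Lung and thymus markers were near absent: none of 11 was tested, 5 (Sftpa1, Sftpb, Sftpd, Scgb1a1 and Dntt) were at 0 in every library, and the summed level was between 0.29 and 0.715 CPM. Cardiac neuron genes, at 17.6 to 30.6 CPM in training and 14.3 to 18.0 in sedentary hearts, had a median r of 0.08. In edgeR 0 of 7 passed (3 at an unadjusted p below 0.05, 1 by DESeq2). Their median log2 fold change was 0.645, with all 7 above 0, beside 0.505 for the members. It was 0.131 for the conduction system and 0.1 for skeletal muscle. Skeletal muscle genes had a median r of 0.47, at 6.01 to 8.85 CPM in training and 5.65 to 8.93 in sedentary hearts, and 0 of 6 passed (0 at an unadjusted p below 0.05, 0 by DESeq2).

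The lists of the remaining cell types held 36 tested genes, of which 3 rose and 3 fell (16.7%, against 7.01% of all tested genes). These lists too were written with earlier results in view, so an excess over all genes is not read as a result. Of 8 smooth muscle genes 2 were higher and 1 was lower in training hearts, of 6 fibroblast genes 1 was higher, and of 5 each for endothelium and cardiomyocytes 1 was lower (edgeR, FDR below 0.1). For macrophages 0 of 5, for Schwann cells 0 of 4 and for erythroid cells 0 of 3 genes passed in edgeR, with 0, 2 and 1 at an unadjusted p below 0.05 and 0 by DESeq2. The cardiomyocyte list did not overlap between groups in its summed level, at 47300 to 48700 CPM in training and 50000 to 53100 in sedentary hearts. Among single genes, 5.06% of all tested did not overlap. Myh6 made up most of that sum, overlapped between groups and did not pass (edgeR, adjusted p = 0.265). Whether the hearts differed in cardiomyocyte content was not tested.

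In the comparison of training with sedentary hearts, 4 of the 17 other atrial genes rose and 1 fell at an FDR below 0.1 (edgeR). Of all tested genes, 2.75% rose and 4.26% fell. The median log2 fold change of the 17 genes was 0.24. Sbk3, a kinase gene of cardiac muscle, rose by 0.66 ± 0.13 (SE) on the log2 scale, from 81.9 ± 15.3 CPM (SD, n = 5) to 130 ± 20.6 CPM (SD, n = 5), and Sbk2 rose by 0.46 ± 0.13, a call that was lost without training heart 1, 3, 4 or 5 or sedentary heart 2, 3 or 5. Kcnj3, a subunit of the acetylcholine-gated potassium channel, rose by 0.36 ± 0.08. Vsnl1, a neuronal calcium sensor gene, rose by 1.34 ± 0.31 at a level of 0.47 CPM in sedentary and 1.20 CPM in training hearts.

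Kcna5, a potassium channel gene, was the only called gene of this list that fell. It was at 15.8, 11.8, 15.9, 17.4 and 23.1 CPM in training hearts 1 to 5 and at 15.9, 34.8, 29.6, 34.9 and 31.8 CPM in sedentary hearts 1 to 5. Sedentary heart 1 had a training-like level, and the other 4 sedentary hearts were above every training heart. Its log2 fold change was −0.81 ± 0.20 (SE; edgeR, adjusted p = 0.0432), and its median r with the members was −0.48.

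Of the 10 ventricular genes tested 1 rose and 1 fell (edgeR), beside 2.75% and 4.26% of all tested genes. Their median log2 fold change was −0.03. Myh7, the slow myosin heavy chain, rose by 1.20 ± 0.18 (SE; edgeR, adjusted p = 0.00871) and did not overlap, with 195, 383, 228, 228 and 227 CPM in training and 74.7, 111, 95.8, 136 and 131 CPM in sedentary hearts. Here sedentary heart 1 was the lowest of all hearts, unlike in the members. Irx3, a transcription factor of the conduction system and ventricle, had a log2 fold change of −0.25 (adjusted p = 0.0957) and lost its call when any of 8 of the 10 hearts was left out, the exceptions being training heart 2 and sedentary heart 1, and with library totals alone, both strands or RSEM counts (adjusted p = 0.154, 0.107 and 0.105). Without sedentary heart 1, 12 of the 17 other atrial genes and 4 of the 10 ventricular genes passed. So did 6 of the 7 members, all but Bmp10, in a fit that called 9.58% of all tested genes. That heart was singled out by the members' own levels, so nothing is read from these counts. With each heart left out in turn, 4 to 12 other atrial genes, 1 to 4 ventricular genes and 2 to 6 members passed.

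**Figure D4:**
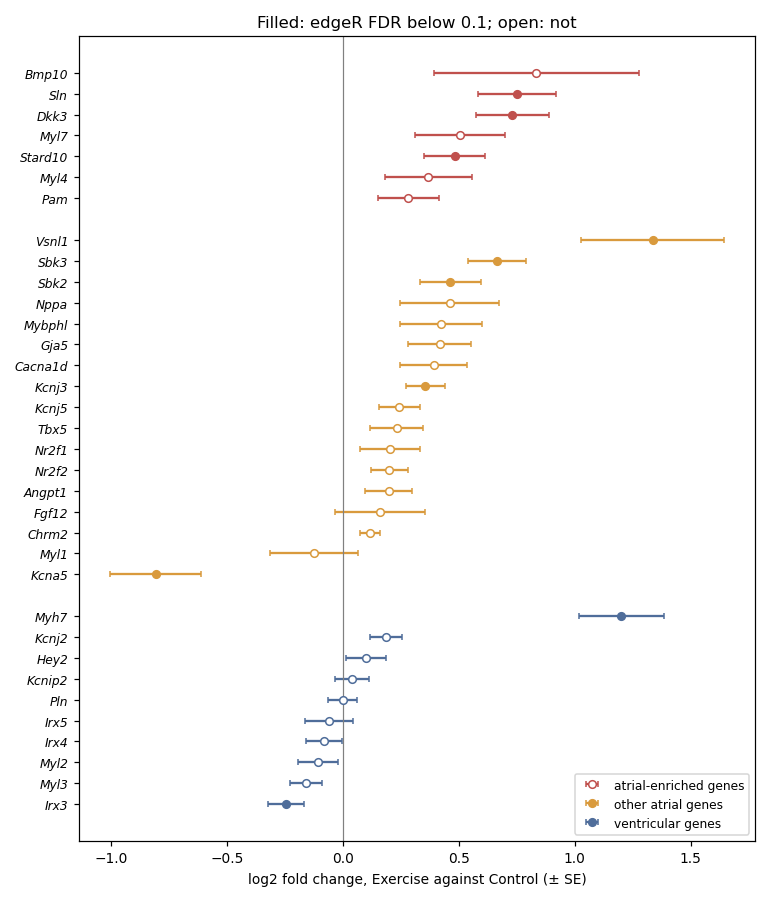
Log2 fold change, training over sedentary (x axis), with its SE for the 7 atrial-enriched genes, 17 other atrial genes and 10 ventricular genes (y axis), filled where the edgeR FDR was below 0.1. The members lie between 0.28 and 0.83, 15 of the 17 other atrial genes lie above 0, and Kcna5 lies at −0.81.

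The members did not keep fixed proportions to each other. Divided by the Myl4 level of the same heart, Sln was at 0.252, 0.223, 0.245, 0.226 and 0.264 in training hearts 1 to 5 and at 0.174, 0.205, 0.184, 0.192 and 0.184 in sedentary hearts 1 to 5. All training hearts exceeded all sedentary hearts, sedentary heart 1 included. The same held for Dkk3, whose ratio to Myl4 was between 0.242 and 0.336 in training and between 0.193 and 0.231 in sedentary hearts. The ratio difference was 0.37 for Sln and 0.35 for Dkk3 on the log2 scale.

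A separation of this kind was met by 4 of 15453 tested genes (0.0259%), which were Sln, Dkk3, Sphkap and Prrx2. Myl4 itself spanned a 2.27-fold range in sedentary hearts, so mainly genes that covary with it can meet this. The share over all genes is therefore no measure of how rare the separation is among such genes. The median r of Sphkap and Prrx2 with the members was 0.91 and 0.84, at mean levels of 3.56 and 0.47 CPM. With Myl7 in place of Myl4, the ratios of Sln and Dkk3 overlapped between groups, at 0.317 to 0.340 against 0.256 to 0.318 for Sln, and no tested gene separated (0%). The ratios of Stard10, Bmp10, Myl7 and Pam to Myl4 overlapped, with a Pam ratio between 2.24 and 2.77 in training and between 2.29 and 3.04 in sedentary hearts. These ratios were chosen after the values were seen and come from the comparison that chose the members, and they have no test.

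**Figure D5:**
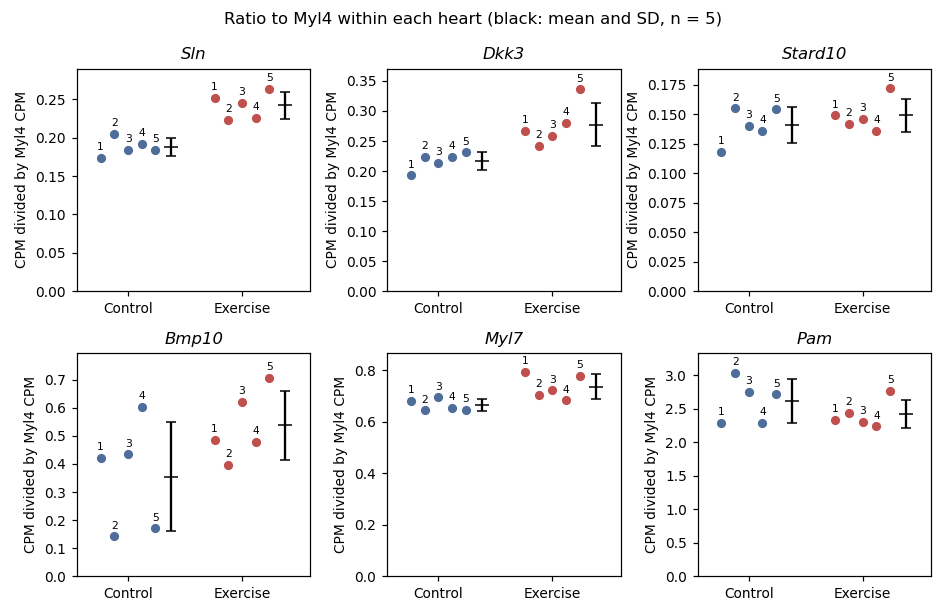
CPM of 6 members divided by the Myl4 CPM of the same heart (y axis from 0), for 5 Control (blue) and 5 Exercise (red) hearts with the mouse number, and the mean with SD in black. For Sln and Dkk3 the 2 groups do not overlap.

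A measure that the choice of genes did not use was the transcript length that RSEM weights by the isoforms it assigned. For Sln, Dkk3, Bmp10 and Myl7 it was constant across hearts. For Myl4 it was 861, 845, 859, 841 and 793 bases in training hearts 1 to 5 and 860, 869, 873, 900 and 904 bases in sedentary hearts 1 to 5, so that training hearts were mostly shorter but overlapped at training heart 1. The log2 difference of −0.069 ± 0.025 (SE) did not pass in limma (adjusted p = 0.407). Nor did that of Stard10 (adjusted p = 0.738) or Pam (adjusted p = 0.959), in a fit that called 0.0308% of 12985 genes.

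Genes that work with the members were read from 6 lists with 65 tested genes, at a median log2 fold change of 0.02. Of these 5 rose and 6 fell (16.9%, edgeR at an FDR below 0.1, against 7.01% of all tested genes). Myh7 among them was already counted with the ventricular genes. The lists were written with earlier results of the same hearts in view, so an excess over all genes is not read as a result. By direction, 2.75% of all tested genes rose and 4.26% fell, the shares to set beside each list. Around sarcolipin, 0 of 7 tested genes rose and 2 fell. The pump gene Atp2a2 had a log2 fold change of −0.02 ± 0.05 (SE) and Pln one of 0.00 ± 0.06 (SE). Casq2, the calcium store protein of the sarcoplasmic reticulum, fell by 0.22 ± 0.05 on the log2 scale, and Strit1, a peptide that activates SERCA, fell by 0.71 ± 0.17 at 3.88 CPM in training and 6.40 CPM in sedentary hearts. Neither overlapped between groups.

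Around Bmp10, 4 of 20 genes rose and 0 fell, beside 2.75% and 4.26% of all tested genes. The ligands Bmp2 and Bmp4 rose by 0.60 ± 0.12 and 0.45 ± 0.09 (SE) without overlap, the signal transducer Smad9 rose by 0.38 ± 0.09, and Smad5 rose by 0.15 ± 0.04. The receptors Acvrl1, Eng and Bmpr2 had log2 fold changes of 0.03, 0.08 and 0.02, and the target genes Id1, Id2 and Id3 had −0.23, 0.44 and 0.08, none of which passed. Id2 was the only gene of this list whose median r with the members reached 0.8, at 0.92.

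Of 11 further genes of myosin, with the myosin light chain kinase gene Mylk3 among them, Myh7 rose and 0 fell. The abundant Myh6, the fast heavy chain, had a log2 fold change of −0.11 ± 0.05 (SE), which did not pass. Of 10 genes of peptide processing and secretion Furin, a prohormone convertase, fell by 0.20 ± 0.05, and 0 rose; the call was lost without training heart 4 or sedentary heart 3 and with library totals alone (−0.15, adjusted p = 0.177). Of 5 tested genes around Dickkopf and Wnt signaling the coreceptor gene Lrp5 fell by 0.18 ± 0.04, and 0 rose. Of 12 START family genes 2 fell, Acot11 by 0.29 ± 0.06 and Stard8 by 0.15 ± 0.04 (SE), and 0 rose. Stard8 lost its call when any heart but training heart 1 or sedentary heart 1 was left out, and with library totals alone, without a filter and with thinned counts (adjusted p = 0.195, 0.11 and 0.116).

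Overlapping loci touched some members. Stard10 shares its strand with the pseudogene Gm45344 inside its locus, Pam with Gm37140, Btf3-ps1 and B230216N24Rik, and Myl4 overlaps Cdc27 on the opposite strand. Reads on the opposite strand of the members made up at most 1.52% of a gene's reads in any heart, for Stard10. RSEM, which also assigns multimapping reads, gave log2 fold changes of 0.75 for Sln, 0.73 for Dkk3, 0.48 for Stard10, 0.84 for Bmp10, 0.37 for Myl4, 0.51 for Myl7 and 0.28 for Pam.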

How the data were processed

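RNA of 10 whole mouse hearts, 5 Exercise and 5 Control, was sequenced by the authors as stranded, poly-T selected single reads in 1 pool. Reads were aligned with STAR 2.7.10a to GRCm39, and the authors deposited raw read counts per gene and strand. They also deposited RSEM 1.3.3 expected counts with TPM, FPKM (not used here) and transcript lengths; the strand setting of RSEM is not given in the sources used here. Groups came from the labels. The 7 genes, all gene lists and all comparisons were chosen with earlier results of these data known.

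Counts of the reverse strand, between 94.9% and 95.6% of stranded counts, were used. Lines that name no gene were excluded before library sizes were summed. Among all reads, multimapping reads were between 17.9% and 19.2%, reads on no gene between 4.15% and 4.89%, ambiguous reads between 0.94% and 0.998% and unmapped reads between 0.837% and 1.05%. Symbols came from GENCODE M39 for 56017 of 56748 identifiers.

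Groups were compared over all genes with edgeR 4.0.16 under R 4.3.3 (low counts removed by filterByExpr, TMM factors, quasi-likelihood F test, Benjamini-Hochberg adjustment, calls at an FDR below 0.1), RSEM lengths on a log2 scale with limma 3.58.1. A prior count of 2 was used for log2 CPM, from which group means were removed before correlations. RSEM expected counts were rounded for testing. Where TPM are given, they are the deposited values. The steps were tested on simulated data.

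Named genes were the 7 members, 10 fixed genes of the other atrial and ventricular lists, every called gene of these lists, up to 3 called genes of each partner list with the largest fold change, and the 10 most and 5 least alike genes. A further gene of the atrial list is not reported here and was left out of the list. Genes named beyond these were chosen after their values were seen. Alternatives were both strands, RSEM counts, DESeq2 1.42.0 or only its size factors, library totals without TMM, the unfiltered table, a minimum of 10 counts per library, thinning to the smallest library, the mouse number as a block, each heart left out, an FDR below 0.05, Spearman's rho, and at least 100 expected counts for lengths. Data of voluntary running mice were left out.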

Additional observations from a re-analysis of the deposited data

Results flagged for a closer look

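Within each group of 5 hearts, the highest and the lowest value of the members, named genes, ratios to Myl4 and RSEM lengths were checked for a gap to the nearest other heart of more than 0.71 of the group's range. Of 110 groups 5 were flagged, and chance flags about 1 in 20. No CPM value of the 7 members was among them.

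Training heart 2 stood apart in 3 genes. Irx4 was at 28.32 CPM there against 21.57 to 22.51 in the other training hearts, Myh7 at 383.3 CPM against 195.1 to 227.6, and Vsnl1 at 0.5154 CPM against 1.33 to 1.432. Myh7 and Vsnl1 kept their calls in edgeR with each heart left out in turn, and DESeq2 gave no adjusted p for Vsnl1.

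Sedentary heart 1 stood apart in Kcna5, at 15.85 CPM against 29.6 to 34.91 in the other sedentary hearts. The RSEM length of Myl4 in training heart 5, 792.7 bases, was below the 841.1 to 860.7 bases of the other training hearts.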

How the results depend on the processing

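The median log2 fold change of the 7 members, 0.50, stayed between 0.40 and 0.72 under all alternatives, and that of each member kept its sign, from 0.21 (Pam without training heart 3) to 1.18 (Bmp10 with the mouse number as a replicate block). For the 25 other named genes and the 2 ratios, chosen after seeing the data, no called value reversed under any alternative. With edgeR's test, 1084 genes were called, 505 at an FDR below 0.05 and 512 to 1490 with each heart left out. Library totals alone gave 1029 higher and 339 lower genes, against 425 and 659 with TMM factors. Of the members 3 were called, 5 with the mouse number as a replicate block and 2 to 6 with each heart left out (2 without training hearts 3 or 4 or sedentary hearts 2, 3 or 5, where Stard10 lost its call, and 6 without sedentary heart 1). Of the other atrial genes 5 were called, 8 by DESeq2, 8 with library totals alone, 9 with the block (Nppa and Mybphl among them, adjusted p = 0.0586 and 0.0642) and 4 to 12 with each heart left out. Of the ventricular genes 2 were called, 1 each with both strands, with RSEM counts and at an FDR below 0.05, and 1 to 4 with each heart left out. Partner genes gave 11 calls, 8 to 18 with each heart left out, and Stard8 lost its call with the block (adjusted p = 0.107). RSEM lengths gave 4 calls in limma and 0 to 8 with each heart left out, where 1091 to 1361 genes had an unadjusted p below 0.05. Of the 10 most alike genes 6 remained with Spearman's rho and 6 to 8 with each heart left out. With counts of both strands, where reads over 2 genes are not counted, the log2 fold change of Myh7 was 0.38 and that of Nppa 0.11. Correlations of residuals between hearts with the same mouse number were between −0.097 and 0.159, so the numbers were not taken as pairs. The causes of these changes were not tested.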
